A study of Caenorhabditis elegans with 2 samples.

Results

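The Hox genes of Caenorhabditis elegans are 6 homeobox genes, ceh-13, lin-39, mab-5, egl-5, php-3 and nob-1. They were taken by name from the Ensembl annotation of WBcel235, which has the coordinates of ce11, and all 6 of the listed genes were found among 19973 protein-coding genes on chromosomes I to V and X. Chromatin immunoprecipitation and sequencing (ChIP-seq) for FKH-10, a forkhead transcription factor, was done on whole first-stage (L1) larvae of mixed sex. The 1 group of 2 biological replicates came from strain OP337, which carries the unc119(ed3) mutation and the transgene wgIs377, a tagged fkh-10 (TY1, EGFP and FLAG) together with unc119. Both replicates share this single transgenic line, the tag is described as C-terminal GFP-FLAG, the antibody is labelled only by its target, and no second condition was included. Whole animals were used, so binding in a few cells is diluted by all other cells.

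Hox genes encode homeodomain proteins that give cells their position along the head-to-tail axis. In the worm they also direct cell migration, the fate of vulval and epidermal cells and the identity of motor neurons. Unlike the compact clusters of many animals, the worm genes stand on chromosome III as pairs that are far apart. The first pair is lin-39 (7528641 to 7536632, minus strand) and ceh-13 (7555660 to 7558041, plus strand). The second is mab-5 (7776835 to 7783454, minus strand) and egl-5 (7814374 to 7817141, plus strand). The third is php-3 (12074218 to 12077556) and nob-1 (12077793 to 12084316), which follow each other on the minus strand. Each gene was given a window from 10000 bp upstream of its annotated start to its end, 12382 bp (ceh-13) to 17992 bp (lin-39) long. The windows of lin-39 and ceh-13 overlap, as do those of php-3 and nob-1, so these neighbours share some summits. The promoter of a gene meant the stretch between the base 1000 bp before its annotated start and the base 200 bp after it.

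The deposited lists name a summit, the highest point of each peak, and a signal per peak whose scale is not given. Replicate 1 had 28842 peaks, replicate 2 had 28896, the list called on both replicates together (pooled) had 19924, and the optimal set, thresholded by the irreproducible discovery rate, had 2602. All optimal peaks were also pooled peaks, the weakest of them had a signal of 37.0, and no pooled peak above that weakest one was missing from the optimal set. Signals are the authors' values with no error of their own, and they are compared here only within a list. The pooled list is labelled as peaks and background, so a pooled peak below the optimal threshold may be background. Read depth is unknown, so binding too weak to be listed cannot be judged.

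No Hox gene had an optimal FKH-10 summit in its window. The count was 0 of 6, against 4805 of 19973 protein-coding genes (24.1%) with the same rule. In the promoter it was also 0 of 6, against 6.38% of all genes. Both replicates gave the same count when taken alone: none of the 22 Hox summits of replicate 1, and none of the 20 of replicate 2, was among as many top peaks of its own list as the optimal set holds. In the unthresholded lists, each replicate had summits in all 6 windows (94.5% of all genes in replicate 1 and 93.6% in replicate 2). Pooled summits, all below the optimal threshold, were listed for 4 of the 6 genes (84.5% of all genes), and none of them lay in a Hox promoter (28.0% of all genes). With only 6 genes, nothing is read from these counts about the Hox genes as a group. Of 62 other homeobox genes with a ceh symbol, 13 had an optimal summit in the window and 3 in the promoter.

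**Figure D1:**
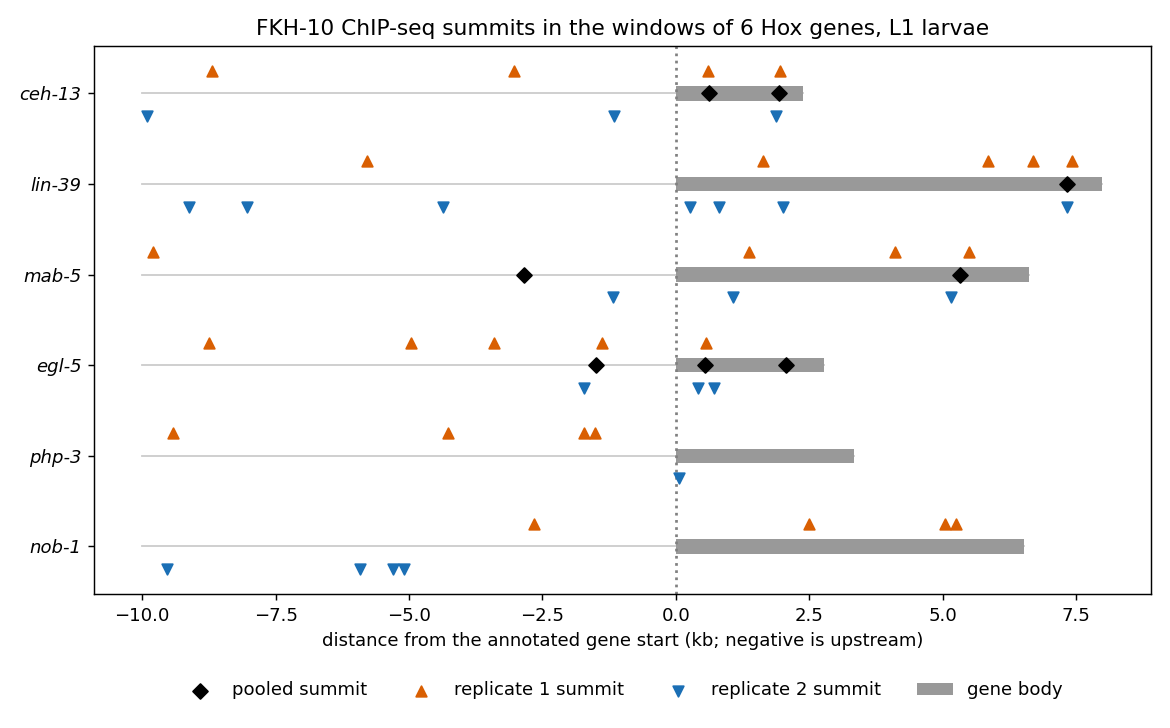
Summits of FKH-10 ChIP-seq in the windows of the 6 Hox genes, by distance from the annotated gene start in kb (negative is upstream). Grey bars are gene bodies, black diamonds the 8 pooled summits, triangles pointing up the 22 replicate 1 summits and triangles pointing down the 20 replicate 2 summits, with summits in overlapping windows drawn in both rows; pooled summits are absent at php-3 and nob-1.

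The 8 pooled Hox summits are described with the sequences of those that carry most information. The first is the strongest, in intron 5 of lin-39. The second lies in intron 2 of ceh-13 and is the only other one with a summit of both replicates within 100 bp. The third lies in intron 1 of ceh-13 and holds a forkhead word. Each is the plus strand of chromosome III on ce11 and reaches 50 bases to each side of the summit, from the RefSeq copy of the assembly. Capitals mark any of the words searched, all on both strands. The forkhead words were GTAAACA, the related form GTAAATA, then also ATAAACA and as the last of them ATAAATA. The others were the repeat GAGAGAGA, the homeodomain word TAATTA, and TGATNNAT, the form of site shared by Hox proteins and their PBC cofactors.
lin-39 intron 5, chrIII:7529250-7529350: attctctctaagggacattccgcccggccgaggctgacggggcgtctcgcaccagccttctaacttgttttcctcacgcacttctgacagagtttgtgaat
ceh-13 intron 2, chrIII:7557542-7557642: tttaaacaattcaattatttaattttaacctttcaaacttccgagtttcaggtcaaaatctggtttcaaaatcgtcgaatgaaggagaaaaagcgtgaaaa
ceh-13 intron 1, chrIII:7556225-7556325: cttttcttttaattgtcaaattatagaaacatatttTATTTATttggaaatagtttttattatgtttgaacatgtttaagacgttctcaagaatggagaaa
The lin-39 sequence holds none of the words and is 54.5% G and C. The ceh-13 intron 2 window also holds none, is 29.7% G and C and runs into coding exon 3. The ceh-13 intron 1 window is 21.8% G and C, and its capitals are ATAAATA read on the minus strand. The central 31 bases of each of the 8 summits occur once in the genome.

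In lin-39, a Hox gene of the midbody needed for vulval precursor cells and for the migration of Q neuroblast descendants, 1 pooled summit was listed, at 7529300, far from the promoter. It lies 7332 bp downstream of the gene start, in the intron before the last exon. Its pooled signal was 20.7, rank 6026 of 19924, with 15.9 in replicate 1 (rank 4952) and 8.56 in replicate 2 (rank 8845). This was the highest pooled signal at any Hox gene, yet it was under the optimal threshold. The −log10 of the deposited q-value was 0.548 for this peak, and 0.0187 to 0.262 for the other pooled Hox peaks. The lin-39 peak ranked within the first 30.2% of the pooled list. The replicate summits were 84 and 12 bp from the pooled one. Among genes with a pooled summit in the window, 48.1% had a lower highest signal than lin-39. Replicate 1 listed 4 further summits and replicate 2 listed 6 further ones, and no 2 of them lay within 100 bp of each other. One replicate 2 summit, at 7544660 with a signal of 5.90, lay in the long non-coding RNA gene linc-57 and within 500 bp of the start of the miRNA gene cel-mir-231.

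In ceh-13, the anterior Hox gene related to Drosophila labial, both pooled summits lay inside the gene. The summit at 7557592, 1932 bp from the gene start, had a pooled signal of 17.6 (rank 8631), with 9.79 in replicate 1 (rank 17059) and 6.41 in replicate 2 (rank 16442). The summit at 7556275, 615 bp from the gene start, had a pooled signal of 13.8 (rank 15508) and 11.4 in replicate 1 (rank 11754). Replicate 2 listed no summit within 100 bp of it, the nearest being 1260 bp away. Upstream of ceh-13 each replicate listed 2 summits within 10000 bp, none of them in the other replicate or the pooled list. The closest to the gene start was at -1162 bp, in replicate 2, with a signal of 5.11.

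In mab-5, the Antennapedia-like gene that directs migration in the left Q lineage, the pooled list had 1 summit in the gene and 1 upstream, and neither had a replicate summit within 100 bp. The summit at 7778126, in the intron before the last exon, had a pooled signal of 15.8 (rank 11093). Its nearest replicate summits were 172 bp away in replicate 1, with a signal of 12.1, and 175 bp away on the other side in replicate 2, with a signal of 7.60. The replicates therefore listed that place 347 bp apart from each other. The upstream summit at 7786305, 2851 bp before the gene start, had a pooled signal of 14.4 (rank 13979). The nearest summit of replicate 1 was 4214 bp away and that of replicate 2 was 1676 bp away, so it was listed in the pooled data alone.

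The egl-5 gene, an Abdominal-B-like gene that acts in the tail, had the most pooled summits of the 6, with 3. The one at 7814929, in intron 1 and 555 bp from the gene start, had a pooled signal of 17.04 (rank 9301) and 14.3 in replicate 1 (rank 6442). The nearest summit of replicate 2 was 145 bp away, with a signal of 5.71. These summits lay within 500 bp of the start of the non-coding RNA gene C08C3.10. Upstream, the summit at 7812878 (-1496 bp) had a pooled signal of 16.4 (rank 10226), between a replicate 1 summit 111 bp away with a signal of 15.6 (rank 5159) and a replicate 2 summit 218 bp away with a signal of 8.02 (rank 10222). Each of these replicate summits was the strongest upstream of a Hox gene start in its own replicate, but they lay 329 bp apart and were not paired. The third egl-5 summit, at 7816437 in the untranslated part of the last exon, had a signal of 12.4 and rank 19800, close to the end of the pooled list. The nearest summit of either replicate was 1010 bp away. Its window held a forkhead word directly after the Hox and PBC word, with no shared base, shown here with both in capitals and read on the plus strand.
egl-5 last exon, chrIII:7816391-7816405: TGATTGATGTAAATA
This window was the only one of the 8 with TGATNNAT, and it stood at the weakest of the 8 summits.

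**Figure D2:**
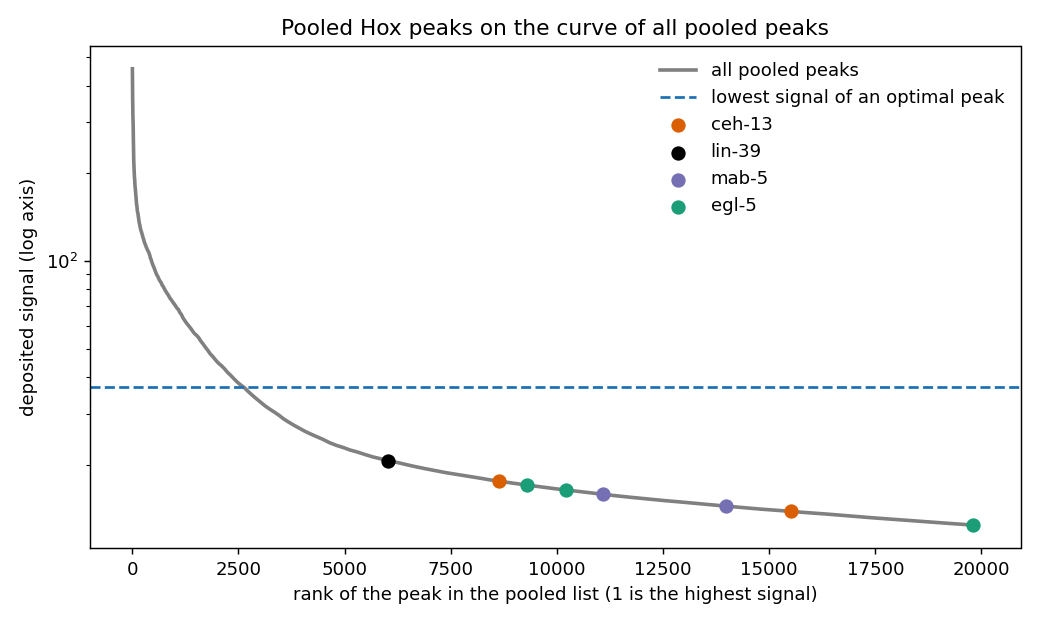
Deposited signal of every pooled peak (grey line, log axis) against its rank, with the 8 pooled Hox peaks as coloured points and the lowest optimal signal, 37.0, as a dashed line. The Hox peaks lie on the flat part of the curve, from rank 6026 at lin-39 to rank 19800 at egl-5.

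The posterior genes php-3 and nob-1, both Abdominal-B-like and nob-1 named for embryos with no back end, had no pooled summit in their windows. A window without a pooled summit was found at 15.5% of all protein-coding genes. Replicate 1 listed 4 summits, shared by both windows, with signals from 8.93 to 14.0. The strongest was at 12081825 in intron 2 of nob-1, with rank 6797. Replicate 2 listed 1 summit in the php-3 window, at 12077491 in the first exon, 65 bp from the start, with a signal of 4.99 (rank 25686). It was the sole replicate summit in any Hox promoter, 0 of 6 genes in replicate 1 (35.8% of all genes) and 1 of 6 in replicate 2 (35.6%). Replicate 2 also listed 4 summits upstream of nob-1, from -5097 to -9526 bp, with signals from 5.23 to 7.82. The shortest distance from any of the 4 replicate 1 summits to a replicate 2 summit was 1585 bp, so the replicates placed their weak signal at different sites.

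The absence of pooled summits around php-3 and nob-1 extended far beyond the windows. Neighbouring pooled summits were at 12064036 and 12121895, 57859 bp apart. Only 9 of 19918 gaps between neighbouring pooled summits were wider, and the median gap was 2835 bp. The starts of 5 protein-coding genes lie inside it, nob-1, php-3, cest-12, lonp-2 and lron-12. Replicate 1 listed 6 summits in this gap and replicate 2 listed 14, and none of the 6 had a replicate 2 summit within 100 bp. One of the 14 lay within 100 bp of a pooled summit at the edge. Replicate 2 thus listed 2.42 summits per 10 kb there, against 2.88 over the chromosomes, and replicate 1 listed 1.04 against 2.88. Between lin-39 and ceh-13 the pooled list was empty from 7529300 to 7556275, a gap of 26975 bp that 282 gaps exceeded. It holds the starts of both genes and their whole shared upstream region, with 7 summits of replicate 1 and 8 of replicate 2, none of the 7 with a replicate 2 summit within 100 bp. Of these, 1 summit of each replicate lay within 100 bp of a pooled summit at the edge of the gap, which leaves 6 and 7 away from the edges. Both gaps thus hold sites that at least 1 replicate listed. The gaps around the starts of mab-5 (8179 bp) and egl-5 (2051 bp) were not among the widest, with 18.1% and 60.7% of all gaps wider. All these gaps were picked because they hold a gene start, and a given position falls more often in a wide gap than in a narrow one. The ranks and shares among all gaps are therefore not matched to this choice, and they do not tell how unusual such a gap is for a gene start.

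**Figure D3:**
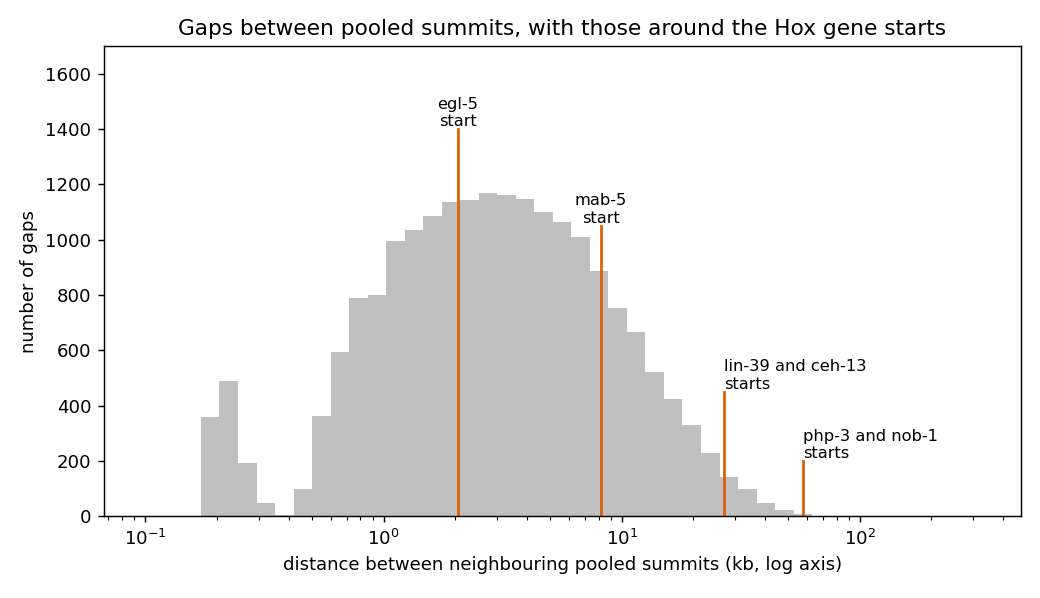
Distances between neighbouring pooled summits over the genome (grey, kb on a log axis), with vertical lines at the gaps that hold the Hox gene starts; the height of a line has no meaning. The gap around php-3 and nob-1, 57859 bp, lies at the far right, with 9 of 19918 gaps wider. Gaps picked by a gene start inside them tend to be wide, and the grey distribution is not matched to this.

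Set per length, pooled summits were sparser in the Hox windows than in those of all genes, and the replicate lists came closer to the background. The Hox windows held 2.90 replicate 1 summits per 10 kb, against 2.78 over the windows of all protein-coding genes, and 2.34 replicate 2 summits, against 2.78. For pooled summits the density was 0.893 per 10 kb in the Hox windows and 1.90 in those of all genes. In these densities, summits and bases shared by overlapping windows are counted once for each gene. The median Hox gene had 1.5 pooled summits, and the median of all genes was 2. The windows differ in length, with a median of 14931 bp for Hox genes and 12027 bp for all genes. Of the 22 distinct replicate 1 summits, 2 had a replicate 2 summit within 100 bp, while over the whole lists 22.9% of replicate 1 summits did. That share is not matched on signal, since the whole lists include the strong peaks. Of optimal peaks, 94.7% had a summit of both replicates within 100 bp. Of the 8 pooled summits, 2 had a summit of both replicates within 100 bp, 2 of replicate 1 alone and 4 of neither. Over the 13775 pooled peaks in the same range of signal, 15.2% had both and 13.3% neither. These are counts over few sites on a single chromosome, they are given as a description, and no test was made of them.

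**Figure D4:**
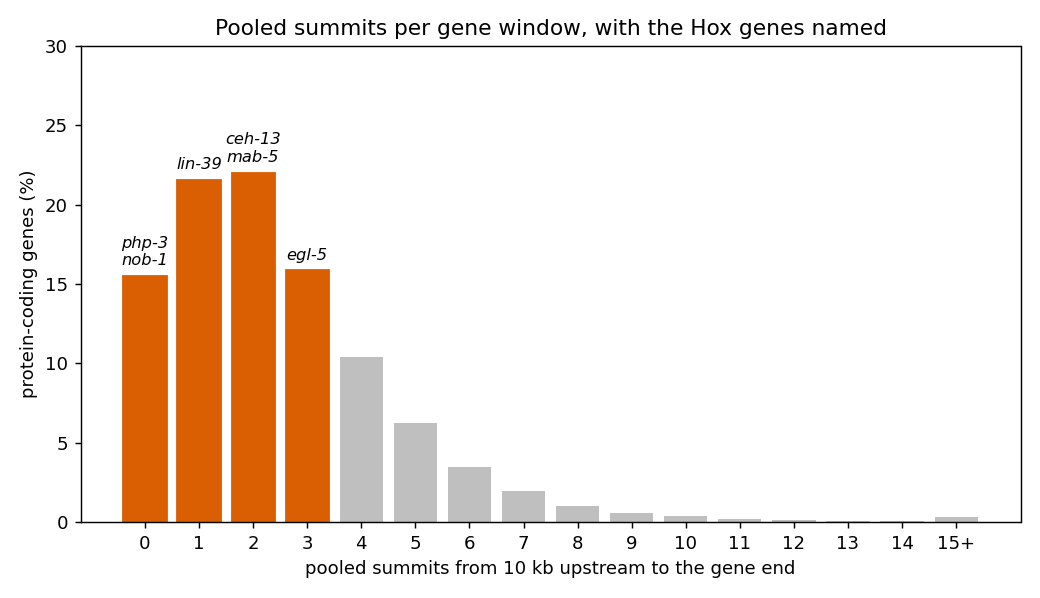
Share of all 19973 protein-coding genes (bars, in percent) by the number of pooled summits in the window, with the bars that hold Hox genes in orange and the genes named above them. The Hox genes have 0 to 3 pooled summits each, and the median of all genes is 2.

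By position, 6 of the 8 pooled summits lay within a Hox gene and 2 upstream. Introns held 5, intergenic sequence 2 and the untranslated part of an exon 1, and none was in coding sequence. The summit in intron 2 of ceh-13 is a borderline case. The replicate 1 summit paired with it, 23 bp away, lies in coding exon 3. Among all pooled peaks below the optimal threshold, introns held 33.7%, intergenic sequence 40.6% and coding exons 19.9%. No Hox summit of the pooled list lay in the promoter of another protein-coding gene. The 8 summit windows had a median of 26.2% G and C, against 45.5% at optimal summits and 36.6% at other pooled summits, and lin-39 alone was above both of these medians. Forkhead words were in 2 of the 8 windows, at ceh-13 and egl-5, against 5.03% of optimal and 9.01% of other pooled windows. The words are rich in A and T, and these 2 windows were the lowest of the 8 in G and C (21.8% and 19.8%). The shares were not matched for base composition. GAGAGAGA and TAATTA were in none, with 1.42% and 4.73% of other pooled windows holding them, and TGATNNAT was in 1 (6.83%).

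Forkhead words were present in Hox promoters that had no optimal or pooled summit. A word was found in 4 of 6 Hox promoters, 2 in ceh-13 and 3 each in mab-5, php-3 and nob-1, and none in lin-39 or egl-5. Of all protein-coding promoters 75.6% held at least 1, and of the 1275 with an optimal summit 73.0% did. The words are short and common, and a match is no more than a description of the sequence. GTAAACA itself was in no Hox promoter, against 15.1% of all promoters. The 3 php-3 words, GTAAATA among them, lie in exon sequence of the neighbouring gene nob-1 and are not shown. The sites of the GTAAATA form at ceh-13, mab-5 and nob-1 are shown on the plus strand, the word at ceh-13 being read on the minus strand. Here capitals mark this one word alone, and other searched words in the mab-5 and nob-1 stretches stay in lower case. Their centres lie 309, 520 and 433 bp upstream of the gene starts.
ceh-13, chrIII:7555337-7555365: tgataaagttaTATTTACcatatctccga
mab-5, chrIII:7783960-7783988: aacaattacaaGTAAATAaaatgtttatt
nob-1, chrIII:12084735-12084763: ttaattaattaGTAAATAagcttataaca
The nearest summit of the pooled or replicate lists was 853 bp from the ceh-13 word, 655 bp from the mab-5 word and 2224 bp from the nob-1 word.

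The nearest optimal peaks to the Hox genes lay at other genes. For ceh-13 it was 14838 bp from the gene start, in the promoter of R13A5.7, with a signal of 54.3 (30.8 in replicate 1 and 20.5 in replicate 2). For lin-39 it was 15826 bp away, 39 bp from the start of cux-7, with a signal of 38.8 (19.1 and 19.8 in replicates 1 and 2). For both php-3 and nob-1 it was the peak in the promoter of arx-3, an actin-nucleating Arp2/3 complex subunit gene, 18920 and 25680 bp away, with a signal of 44.3. All of these were downstream of the Hox gene and had signals of 54.3 or less. The egl-5 start was 40310 bp from a far stronger peak, in the promoter of the ribosomal protein gene rpl-35, with a signal of 266, rank 23 of the optimal set and replicate signals of 129 and 136. The mab-5 start had the longest distance, 53713 bp to a coding-exon peak where the genes ZK112.4 and ncl-1 overlap (signal 59.2), and 81.5% of protein-coding genes were closer to an optimal summit. The median distance was 22300 bp for the Hox genes and 18661 bp for all genes, with 7047 to 41445 bp covering the middle of the distribution between its quartiles. The optimal gap that holds both mab-5 and egl-5 spans 124943 bp and 20 protein-coding gene starts, and 5.86% of optimal gaps were wider. This gap too was picked by the gene starts inside it, which favours wide gaps, and the share is not matched to that.

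Some of the genes that act with or on the Hox genes had optimal peaks of their own. The lists of such genes were drawn up with earlier results of these data known. Their counts are a description, and no test was made of them. Of 34 such genes, 11 had an optimal summit in the window (24.1% of all genes) and 7 in the promoter (6.38% of all genes). Of these 7, most were chromatin repressors, genes that keep Hox genes silent outside their domains, with 5 of 8 in the promoter. Among them were mes-2, whose product is the Polycomb histone methyltransferase, with a signal of 43.8 and replicate signals of 32.1 and 12.97, and its partner mes-6 with 43.7 (23.6 and 18.05). The SOP-2-related genes sor-1 and sor-3 had signals of 117 (72.2 and 46.4) and 66.0 (41.8 and 23.1), and sop-2 had 45.0 (15.4 and 26.0). At sop-2 the rank was 5318 in replicate 1 and 1561 in replicate 2. Its replicate 1 signal was below the 15.9 of replicate 1 at the lin-39 summit. The mes-6 summit also lay in the promoter of tag-77, and the sor-3 summit within 500 bp of a tRNA gene start. Of 7 other listed chromatin genes, 4 had an optimal summit in the window and 2 in the promoter. The strongest was set-16, a methyltransferase gene of the trithorax group, with a signal of 178 (100.2 and 74.4) in a promoter shared with drr-2, and lin-59 had 90.1. The summits of ash-2 (93.9), 474 bp inside the gene and in the promoter of Y17G7B.20, and of egl-27 (61.9), 2639 bp upstream, lay outside their own promoters. Of 5 cofactor genes only ceh-20, the PBC homeodomain partner of Hox proteins, had one, with a signal of 127 at 7793 bp upstream, in the shared promoter of eef-1A.1 and rfc-4. Of 8 upstream factors only sem-4 did, with a signal of 46.3 at 8872 bp upstream. Target genes of Hox proteins had an optimal summit at 0 of 6.

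The genes most like a Hox gene in the highest signal of their windows could be named for ceh-13, lin-39, mab-5 and egl-5, since php-3 and nob-1 have no pooled summit to match. Likeness was the Euclidean distance of the log2 highest signals in 3 lists (pooled, replicate 1 and replicate 2), over 16104 genes with a summit in all 3. The nearest were sprp-4 and faxc-2 to ceh-13 (distances 0.035 and 0.037), ddo-1 and srh-290 to lin-39 (0.023 each), F27D9.13 and mlt-11 to mab-5 (0.015 and 0.026), and C08E8.6 and Y51A2B.8 to egl-5 (0.037 each). The 2 genes beside lin-39 have the same values as each other, as do those beside egl-5. The 8 genes had 2 to 5 pooled summits in the window, and matching on signals under the optimal threshold leaves no room for optimal ones.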

How the data were processed

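FKH-10 ChIP-seq peak lists of 2 replicates were used on ce11, 1 list per replicate, a pooled list and an optimal set. They derive from the alignments, per the file notes deposited beside them. The aligner and the peak caller were not given in the sources used here. The deposited signal per peak has no stated scale. The −log10 of the deposited q-value served as an alternative rank and is given for the pooled Hox peaks. The deposited ce10 lists were not used. Genes came from Ensembl release 115, and sequence from RefSeq. Summits (1-based) were counted in windows with Python 3.11.15, pandas 2.3.3 and numpy 2.4.6. Summits of different lists were paired within 100 bp. The counting code was tested on simulated data. With 1 group no test was made. The members and lists were chosen with earlier results of these data known. The named genes are the 6 members, genes whose promoters hold their pooled summits, pathway genes with an optimal summit, and the 2 genes most like each member with pooled summits. Alternatives covered the window, the list, the promoter, the pairing distance, the sequence window and each replicate alone.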

Additional observations from a re-analysis of the deposited data

How the results depend on the processing

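The count of Hox genes with an optimal summit stayed 0 under the alternatives that could have raised it, namely an upstream reach of 20000 bp, upstream windows ending at the nearest gene, 1000 bp past the gene end, peak overlap in place of summits, each replicate alone and, for promoters, all pooled peaks. Shorter reaches of 2000 and 5000 bp, the optimal peaks of above-median signal and 3 other promoter definitions were also run, and for these a count of 0 shows nothing further. The count of 8 pooled summits ranged from 7 to 11 over the window alternatives. It was 0 among the 5000 strongest pooled peaks and 2 when both replicates had to have a summit within 100 bp. Each replicate list alone gave 20 or 22 summits; the pooled list itself could not be remade without a replicate. The 2 pooled summits with a summit of both replicates within 100 bp became 0 with pairing within 50 bp and 4 within 200 bp. Of the pathway genes, 7 had an optimal summit in the promoter, against 11 in the whole window. Of 60 counts per gene and setting, 20 moved by over 1.5 times, or between 0 and another count. The cause of these moves was not tested beyond what each setting changes by construction. The p-value column holds a placeholder, so no rank was made from it. Unknown read depth limits all statements on weak peaks.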

Other observations

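In 3 of the 4 Hox genes with a pooled summit, lin-39, ceh-13 and mab-5, a summit lay in the intron just before the last exon, which makes 3 of the 5 intronic summits. Over the genome the last intron held 12.9% of the intronic pooled summits below the optimal threshold, in genes of 3 or more exons, and 13.4% of the intron bases. This position was looked up after the summits were seen, the number is small, and only those of lin-39 and ceh-13 had summits of both replicates within 100 bp. The ceh-13 gene has only 3 exons, and the replicate 1 summit paired with its last-intron summit lies in coding exon 3. The genome shares are not matched to the intron lengths of these Hox genes, so nothing is read from the difference. The wide gap without pooled summits around php-3 and nob-1 is the tenth widest of the genome, and the widest, 231898 bp, is on chromosome V. Another wide gap of chromosome III, 62504 bp from 7399996 to 7462500, ends before lin-39.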
